A study of Rattus norvegicus with 138 samples.

Results

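Gene expression in the solitary tract nucleus (NTS) of female spontaneously hypertensive rats (SHRs) was compared between 24 and 8 wk of age. The comparison took 5 libraries of 24 wk and 5 of 8 wk, all of those whose name ends in 1, out of 46 NTS libraries and 138 libraries in the series. Each library is RNA from punches of both sides of the NTS of 1 rat, so the replicates are different rats. The series also holds the caudal and rostral ventrolateral medulla (CVLM and RVLM) of the same rats and the same 3 regions of Wistar-Kyoto (WKY) rats, the normotensive control strain. Rats were untreated females of the sublines SHR/NHsd and WKY/NHsd. At 8 wk the SHR is taken to be prehypertensive and at 24 wk to have had high pressure for a long time, so age and the duration of hypertension cannot be told apart within this strain.

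The NTS receives the baroreceptor and visceral afferents and sends their signal on to the CVLM and RVLM, which set sympathetic outflow. Between 8 and 24 wk the rat brainstem also finishes growing. Oligodendrocytes wrap axons with membrane that is rich in cholesterol and galactolipid, and their precursors pass through a short stage with its own marker genes before they make myelin. Brain cholesterol is made locally, from acetyl-CoA through mevalonate to sterols, because plasma lipoproteins do not cross the blood-brain barrier. Microglia, the resident macrophages, and astrocytes are the main local sources of the complement factors of the classical pathway.

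Libraries of 8 wk held 6078830 to 10743000 counts (median 8722180) and those of 24 wk 7742350 to 10290300 (median 8986490). Over the 13793 genes tested, log2 fold changes had a median standard error of 0.17. Markers of the NTS and of its neighbours were present in every library, and the 10 tested markers of NTS identity summed to 317 to 472 CPM, counts scaled to a common library size, at 8 wk and 359 to 543 CPM at 24 wk. They include tyrosine hydroxylase, Th, at 107 ± 23.8 CPM (SD, n = 5) at 8 wk and 134 ± 25.1 CPM (SD, n = 5) at 24 wk. Choroid plexus markers summed to 7.30 to 14.5 CPM over the 10 libraries, and to far more in some WKY libraries used below. Mitochondrial genes took 7.21% to 8.15% of the counts in 4 of the 8 wk libraries, 13.9% in the library of 8 wk replicate 3, and 5.81% to 8.35% at 24 wk. All levels in CPM below were normalized by TMM, and a difference is the log2 fold change of 24 against 8 wk unless another contrast is named.

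In the NTS of SHRs, the genes called lower at 24 wk than at 8 wk included 3 of 18 on the list of mature oligodendrocytes and myelin, 2 of 12 on that of oligodendrocyte precursors and newly forming oligodendrocytes, 2 of 20 on that of cholesterol synthesis, and the collagens Col1a1 and Col3a1. At an adjusted p under 0.05 (edgeR quasi-likelihood test, Benjamini-Hochberg over all genes), 23 genes differed, which is 0.167% of those tested. Of these, 20 were lower (0.145%) and 3 were higher (0.0218%). At an unadjusted p under 0.05, 1043 genes differed (7.56%), 524 of them higher and 519 lower. In 22 of the 23 called genes no 24 wk rat lay among the 8 wk rats, which held for 1.52% of all genes. The genes were called on these same rats, so this describes the calls and adds no support to them. The number called rested on single rats. It was 5 without 24 wk replicate 2, 9 without 24 wk replicate 4, 11 without 24 wk replicate 5, 12 without 8 wk replicate 3 and 35 without 24 wk replicate 1. Pnlip, Masp1, Ugt8 and Cyp51 were called in each of these fits and in every other setting tried at this threshold. In bulk tissue, fewer cells of a type and less RNA per cell cannot be told apart.

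**Figure D1:**
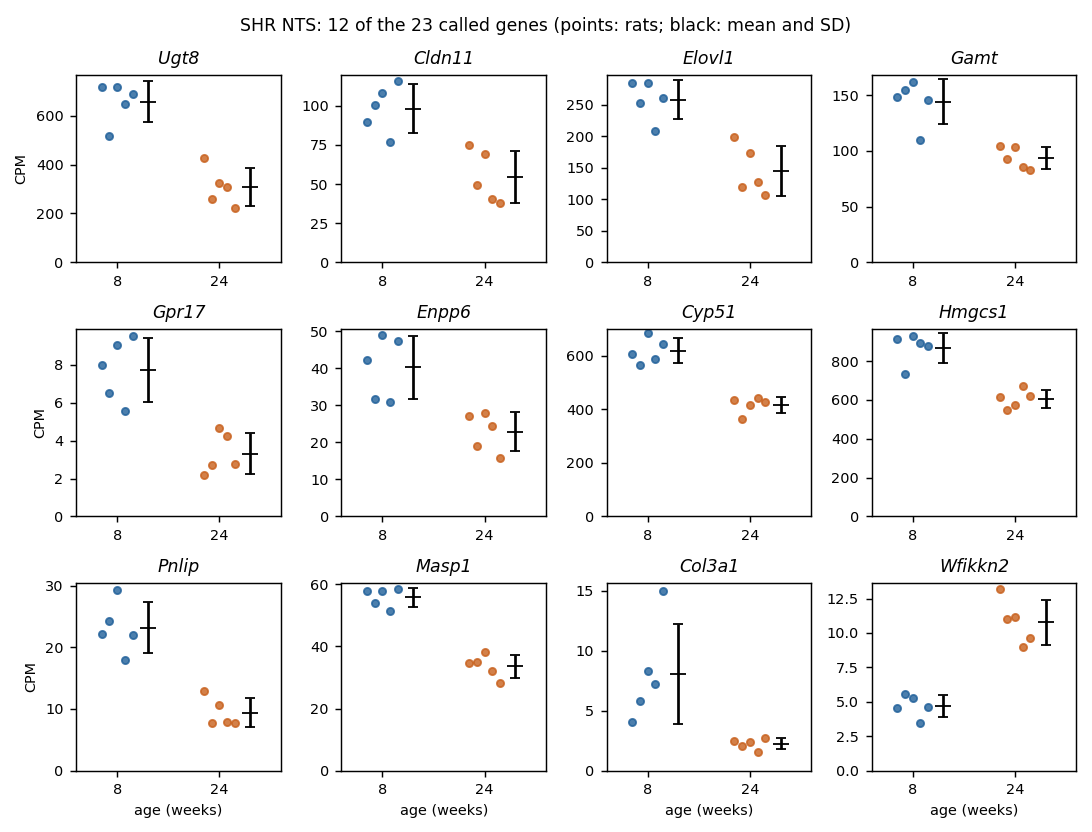
Level in CPM (vertical axis, from 0) of 12 of the 23 called genes in the NTS of each of 5 SHRs at 8 wk (blue) and 5 at 24 wk (orange), with the mean and SD in black. In all 12 panels the groups do not overlap, and Wfikkn2 is the panel in which 24 wk is higher.

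Ugt8, which makes the galactolipid of myelin, had the largest difference on the myelin list. Its level was 719, 515, 716, 650 and 691 CPM in 8 wk replicates 1 to 5, and 427, 260, 324, 309 and 224 CPM in 24 wk replicates 1 to 5. Every 24 wk rat was below every 8 wk rat, and the log2 fold change was -1.09 ± 0.18 (SE, adjusted p = 0.00509, edgeR). Cldn11, which forms the tight junctions between myelin layers, fell from 98.2 ± 15.5 to 54.3 ± 16.7 CPM (SD, n = 5 each), a log2 fold change of -0.85 (adjusted p = 0.0215).

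Of the 18 genes on the list of mature oligodendrocytes and myelin, all were tested, 16 had a log2 fold change below 0 (47.5% of all genes), and 3 were called lower. A further 9 of them passed only the unadjusted threshold, so that 12 were lower at an unadjusted p under 0.05, against 3.76% of all genes. The list's median log2 fold change was -0.52, against 0.01 over all genes. Mbp, which holds the membrane layers of myelin together, had 25022 ± 4027 CPM (SD, n = 5) at 8 wk and 17681 ± 4950 CPM at 24 wk. Its log2 fold change was -0.50 ± 0.17 (SE, adjusted p = 0.355), and its groups overlapped. Mog, a protein of the outer myelin surface named after its value was seen, had a log2 fold change of -0.67 (adjusted p = 0.0575). Tf, the iron carrier that oligodendrocytes also make, had 0.01, and Hapln2 of the node of Ranvier had 0.09.

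The summed level of the myelin list was 55724, 46171, 55209, 42706 and 59519 CPM in 8 wk replicates 1 to 5. At 24 wk it was 48736, 28505, 42334, 32470 and 26860 CPM in replicates 1 to 5. Replicate 1 of 24 wk lay inside the 8 wk range, replicate 3 lay just below it, and the other three 24 wk rats lay well below. Genes of motor neurons and cholinergic transmission, some of which mark the neighbouring dorsal motor nucleus of the vagus, summed to 3276 to 4924 CPM at 8 wk and 4190 to 5213 CPM at 24 wk. Chat was a small part of this sum, with a mean of 34.2 CPM at 8 wk and 59.7 CPM at 24 wk, so the sum says little of that nucleus. The part of these genes in the result was not tested.

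**Figure D2:**
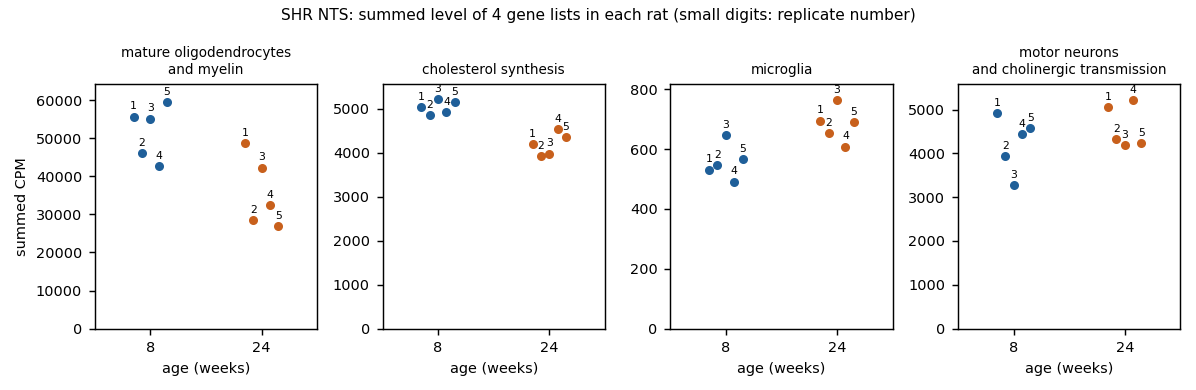
Summed level of the tested genes of 4 lists (vertical axis, CPM, from 0) in the NTS of each SHR at 8 wk (blue) and 24 wk (orange), with small digits giving the replicate number. The cholesterol synthesis list is the one whose groups do not overlap, with 4854 to 5223 CPM at 8 wk and 3917 to 4540 CPM at 24 wk.

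Gpr17 and Enpp6, from the list of oligodendrocyte precursors and newly forming oligodendrocytes, were lower as well. Gpr17, a receptor of precursors that have begun to differentiate, had 7.97, 6.52, 9.02, 5.57 and 9.54 CPM at 8 wk and 2.19, 2.70, 4.66, 4.22 and 2.79 CPM at 24 wk. The groups did not overlap, and the log2 fold change was -1.23 ± 0.22 (SE, adjusted p = 0.0111, edgeR). Enpp6, a choline phosphodiesterase of newly forming oligodendrocytes, had 42.3, 31.6, 49.0, 30.8 and 47.2 CPM at 8 wk and 27.1, 19.1, 27.9, 24.3 and 15.7 CPM at 24 wk. Again no rats overlapped, with a log2 fold change of -0.82 ± 0.17 (SE, adjusted p = 0.0299). All 12 tested genes of this list had a value below 0 (47.5% of all genes), 2 of them were called (0.145% of all genes were called lower), and the median was -0.14. That median rested on single rats, at -0.45 without 24 wk replicate 2, -0.29 without 8 wk replicate 1, -0.28 without 8 wk replicate 3, -0.09 without 8 wk replicate 5, and -0.08 without either 24 wk replicate 4 or 24 wk replicate 5. Bcas1, also of newly forming cells, had 371 CPM at 8 wk and 337 CPM at 24 wk by mean, and a log2 fold change of -0.14 that did not pass the test. The precursor markers Pdgfra and Cspg4 and the lineage factor Sox10 had log2 fold changes of -0.05, -0.09 and -0.01, none of which passed the test. The list of cell division genes had no call among its 12 tested members and a median of -0.09, which ranged from -0.20 to -0.05 over the settings tried.

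Other called genes are also known from oligodendrocytes, though they were on no list. Elovl1, an elongase of very long fatty acids, fell by 0.83 on the log2 scale, from 258 ± 30.9 to 145 ± 39.3 CPM (SD, n = 5 each, adjusted p = 0.0111). Gamt, the last enzyme of creatine synthesis, fell by 0.62, from 144 ± 20.4 to 93.6 ± 10.1 CPM (adjusted p = 0.0143). Tspan2, a tetraspanin of the oligodendrocyte membrane, fell by 0.66 and was the called gene whose groups overlapped, since 24 wk replicate 1 had 353 CPM and 8 wk replicate 2 had 336 CPM.

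In cholesterol synthesis, enzymes at an early and a late step were called lower. Cyp51, the demethylase that acts on lanosterol, had 607, 566, 685, 588 and 643 CPM at 8 wk and 433, 365, 417, 441 and 428 CPM at 24 wk. Its groups were well apart, and the log2 fold change was -0.57 ± 0.08 (SE, adjusted p = 0.00105, edgeR). Hmgcs1, which makes HMG-CoA ahead of mevalonate, had 914, 734, 927, 893 and 876 CPM at 8 wk and 616, 546, 573, 669 and 621 CPM at 24 wk. Replicate 2 was the lowest at both ages, no rats overlapped, and the log2 fold change was -0.52 ± 0.09 (SE, adjusted p = 0.0111). Of the 20 genes on the list, 18 had a value below 0 (47.5% of all genes) and 2 were called lower (0.145%). At an unadjusted p under 0.05, 8 were lower (3.76% of all genes). Their median log2 fold change was -0.20.

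Among the list's members that were not called, Idi1, Dhcr7 and Msmo1 are named after their values were seen. Idi1, the isomerase that readies isoprene units for joining, had a mean of 118 CPM at 8 wk and 77.6 CPM at 24 wk with no overlap, and a log2 fold change of -0.60 (adjusted p = 0.0652). Msmo1 and Dhcr7, which act on sterols, had -0.33 and -0.40 (adjusted p = 0.114 and 0.138). Fdps and Fdft1, enzymes of the middle of the pathway, had -0.08 and -0.11. Genes of the pathway are known to respond together to the sterol-sensing factor SREBP, which acts with NF-Y, the factor that binds the CCAAT box.

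The promoters of Hmgcs1, Cyp51 and Idi1 are shown because these genes had the largest differences on the list. Each sequence is the 250 bases before the gene's start in RefSeq (GRCr8, whereas the counts are on rn6), read in the direction of transcription. Capitals mark CCAAT or its reverse complement ATTGG. Hmgcs1 lies at chr2:53382054-53382303 on the plus strand, Cyp51 at chr4:30991443-30991692 on the plus strand and Idi1 at chr17:66547525-66547774 on the minus strand.

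Hmgcs1: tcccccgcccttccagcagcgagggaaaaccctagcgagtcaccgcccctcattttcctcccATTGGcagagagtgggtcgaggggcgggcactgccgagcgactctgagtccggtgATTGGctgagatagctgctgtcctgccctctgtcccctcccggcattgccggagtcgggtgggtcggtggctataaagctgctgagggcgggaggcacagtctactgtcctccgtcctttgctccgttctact

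Cyp51: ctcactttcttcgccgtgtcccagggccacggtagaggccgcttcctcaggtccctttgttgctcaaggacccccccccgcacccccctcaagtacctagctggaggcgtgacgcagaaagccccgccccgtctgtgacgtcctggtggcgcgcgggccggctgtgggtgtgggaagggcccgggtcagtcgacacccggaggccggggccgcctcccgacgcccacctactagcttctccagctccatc

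Idi1: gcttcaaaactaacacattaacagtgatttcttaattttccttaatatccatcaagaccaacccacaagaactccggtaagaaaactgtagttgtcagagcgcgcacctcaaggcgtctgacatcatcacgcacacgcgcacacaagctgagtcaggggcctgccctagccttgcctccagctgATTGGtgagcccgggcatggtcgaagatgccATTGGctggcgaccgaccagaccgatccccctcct

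Counted back from the start, the motif began at bases -188 and -133 of Hmgcs1 and at -66 and -35 of Idi1, and these letters were not in the window of Cyp51. On either strand the motif was present in 11 of the 14 promoters of the list that the table holds (78.6%), and in 34.0% of all 33469 promoters. A match is a description of letters, and its part in the difference between ages was not tested.

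**Figure D3:**
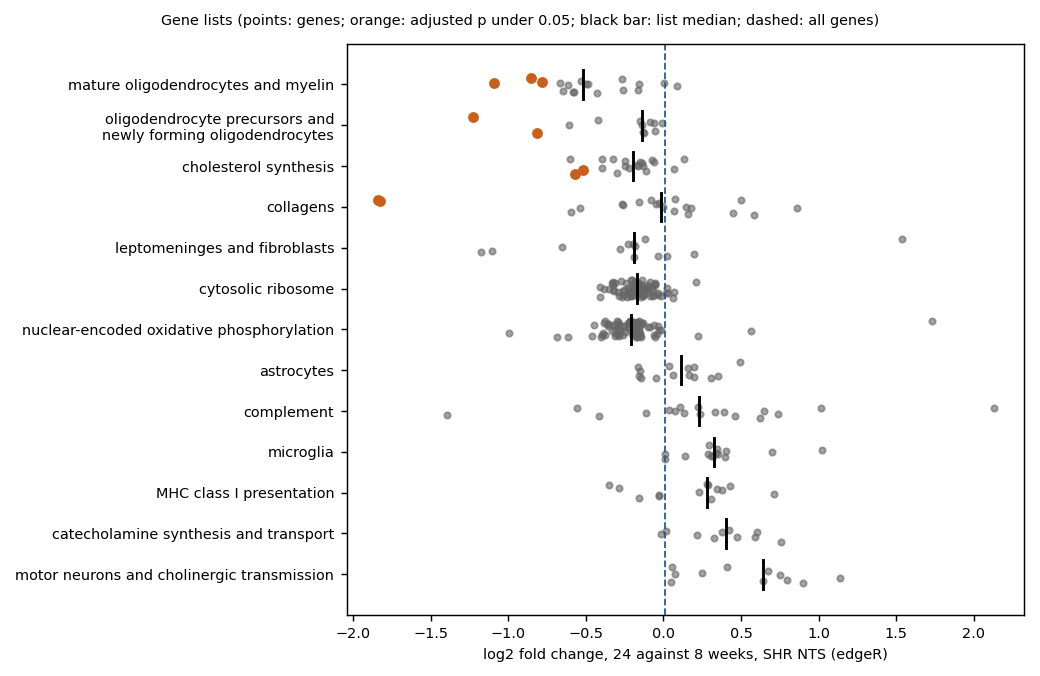
Log2 fold change of 24 against 8 wk in the NTS of SHRs (horizontal axis) for the tested genes of 13 lists, 1 point a gene, with called genes in orange, the list's median as a black bar and the median of all genes (0.01) as a dashed line. The myelin median lies at -0.52 and the cholinergic one at 0.64, where no gene was called.

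The collagens Col3a1 and Col1a1, of the fibres of connective tissue, were low at both ages and lower at 24 wk. Col3a1 had 4.04, 5.78, 8.29, 7.21 and 15 CPM at 8 wk and 2.49, 2.05, 2.39, 1.54 and 2.69 CPM at 24 wk. The 8 wk rats were widely spread and the 24 wk rats were close together, with no overlap and a log2 fold change of -1.84 ± 0.34 (SE, adjusted p = 0.0111, edgeR). Col1a1 went from 2.95 ± 1.25 to 0.813 ± 0.0802 CPM (SD, n = 5 each), a log2 fold change of -1.83 ± 0.38 (SE, adjusted p = 0.0299). The other 18 tested collagens had no call, 9 of the 20 had values above 0, and the list's median was -0.02, with either sign among the settings tried (-0.13 to 0.09). Col11a2, the most abundant of them, had a mean of 40.8 CPM at 8 wk and 45.2 CPM at 24 wk. Of the 13 tested genes of leptomeninges and fibroblasts, the cells that make these collagens, 10 had values below 0 (47.5% of all genes) and none was called. That list summed to 435 to 697 CPM at 8 wk and 431 to 622 CPM at 24 wk, and its part in the result was not tested.

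The remaining called genes that were lower belong to several functions. Pnlip, which encodes a triglyceride lipase best known from the pancreas, had the lowest adjusted p of all. It had 22.2, 24.4, 29.4, 18 and 22 CPM at 8 wk and 13, 7.77, 10.6, 7.81 and 7.75 CPM at 24 wk. All 8 wk rats were above all 24 wk rats, and the log2 fold change was -1.31 ± 0.16 (SE, adjusted p = 5.74e-05, edgeR). Masp1, a protease of the lectin pathway of complement, had 57.9, 54.0, 57.8, 51.5 and 58.5 CPM at 8 wk and 34.7, 34.8, 38.2, 32.1 and 28.2 CPM at 24 wk. Both groups were tight, and the log2 fold change was -0.74 ± 0.11 (SE, adjusted p = 0.00105). Scrg1, first known from scrapie-infected brain, fell by 0.96 on the log2 scale, and Hhip, which binds hedgehog ligands, fell by 0.97 (adjusted p = 0.0111 and 0.0412). Csrp2, a LIM-domain protein, fell by 0.77, and Ctsl, the lysosomal protease cathepsin L, fell by 0.44 (adjusted p = 0.0198 and 0.047). The locus AABR07026112.1 fell by 0.88 and LOC108348175 by 0.61.

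Of the 3 genes that were higher, Wfikkn2, a secreted protein that binds myostatin, had 4.53, 5.54, 5.24, 3.44 and 4.65 CPM at 8 wk and 13.2, 11, 11.1, 8.96 and 9.61 CPM at 24 wk. No rats overlapped, and the log2 fold change was 1.20 ± 0.22 (SE, adjusted p = 0.0111, edgeR). Jhy, a gene needed for cilia of the ependyma, had 2.85, 4.68, 1.83, 3.28 and 3.26 CPM at 8 wk and 5.88, 6.90, 7.38, 6.91 and 5.37 CPM at 24 wk. All 24 wk rats were above all 8 wk rats, and the log2 fold change was 1.03 ± 0.21 (SE, adjusted p = 0.0299). Of the 21 tested genes of ependyma and motile cilia, none was called, 17 were above 0 (7240 of all 13793 genes), and the median was 0.56 (0.30 without 24 wk replicate 5). RT1-CE4, a class I gene of the major histocompatibility complex, had 8.46, 7.87, 5.85, 9.18 and 7.33 CPM at 8 wk and 13.4, 14.9, 12.6, 10.2 and 14.4 CPM at 24 wk. The groups again did not overlap, and the log2 fold change was 0.76 ± 0.16 (SE, adjusted p = 0.0299). RT1 genes share near-identical stretches between which RSEM splits reads, so the level of a single RT1 gene is uncertain. RT1-A1, the most abundant of them, had 123 ± 12.1 CPM at 8 wk and 160 ± 17.1 CPM at 24 wk with an adjusted p of 0.0873.

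No microglial gene and no gene of the complement list passed the test, and both lists had medians above 0. Of the 14 microglial genes, none had a value below 0, 8 had an unadjusted p under 0.05 against 3.8% of all genes in that direction, and none was called. The median log2 fold change was 0.33. The list summed to 492 to 647 CPM at 8 wk and 608 to 764 CPM at 24 wk, with 8 wk replicate 3 and 24 wk replicate 4 in the overlap. Csf1r, the receptor microglia need to survive, had 118 ± 16.2 CPM at 8 wk and 155 ± 31.1 CPM at 24 wk (SD, n = 5 each, adjusted p = 0.381). Aif1 and P2ry12, a general and a homeostatic marker, both had 0.01. The microglial median was 0.30 in WKY rats from 8 wk, 0.49 in the CVLM and 0.33 in the RVLM of SHRs. Related lists went either way, and none held a called gene. MHC class I presentation had a median of 0.28 (13 genes tested, 8 above 0) and interferon-induced genes 0.08 (21 tested, 14 above 0). The median was -0.05 for activated microglia (7 genes tested, 4 below 0) and -0.003 for MHC class II presentation (5 tested). It was -0.43 for perivascular macrophages, lymphocytes and mast cells (3 tested). The 17 symbols of the complement list gave 18 tested entries, since a symbol can stand for more than 1 entry. Of these entries, 14 had values above 0 (7240 of all 13793 genes) and 4 below. An unadjusted p under 0.05 was reached by 5, all of them above 0 (3.8% of all genes), and the median was 0.23. C1s, the serine protease of the C1 complex, had 7.48, 8.49, 12.2, 9.83 and 8.26 CPM at 8 wk and 14.7, 13.3, 13.3, 15.5 and 14.3 CPM at 24 wk. Its groups did not overlap and its log2 fold change was 0.62 ± 0.14 (SE, adjusted p = 0.0503), just outside the threshold. C1r, its partner protease, had 0.65 (adjusted p = 0.0988). Further values outside the threshold were 0.79 for Lcp1, an actin-bundling protein of leukocytes, 1.58 for Slamf8, a surface protein of macrophages, 0.70 for Itgb2, the integrin chain shared by leukocyte integrins, and 0.61 for Qdpr, which regenerates tetrahydrobiopterin (adjusted p = 0.0765, 0.0779, 0.09 and 0.0771).

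Of the 43 lists, 4 held a called gene, and the medians of the other 39 lay between -0.43 and 0.64. None of the neuronal lists had a called gene. All 11 tested genes of motor neurons and cholinergic transmission had values above 0, as had 7240 of all 13793 genes. Their median was 0.64 (0.40 without 24 wk replicate 5), and 5 had an unadjusted p under 0.05, against 3.8% of all genes in that direction. Slc18a3, the vesicular acetylcholine transporter, had 64.9, 41.6, 48.3, 38.5 and 40.7 CPM at 8 wk and 91.5, 77.5, 67.4, 99.7 and 100.2 CPM at 24 wk. The groups did not overlap, and the log2 fold change was 0.90 ± 0.26 (SE, adjusted p = 0.247). Chat, which makes acetylcholine, had 0.80 (adjusted p = 0.223). Of the 10 genes of catecholamine synthesis and transport, 9 were above 0 (7240 of all 13793 genes). An unadjusted p under 0.05 was reached by 3 of them (3.8% of all genes in that direction), and Th had 0.33 (adjusted p = 0.717). The ion channel, transmitter receptor and vesicle release lists had medians between -0.11 and 0.09. Of the genes for nuclear-encoded oxidative phosphorylation, 79 of 82 had values below 0 with a median of -0.21, and of those for the cytosolic ribosome 70 of 76, with a median of -0.17. Of all genes 47.5% had values below 0. None of either list was called. Without 8 wk replicate 3, the library with the highest mitochondrial share, these medians were -0.13 and -0.04. The ribosomal median was also -0.11 without 8 wk replicate 2. The share of counts from mitochondrial genes was given above for each age. A fit without these genes was among the 23 settings tried. Over those the medians ran from -0.31 to -0.10 for oxidative phosphorylation and from -0.27 to -0.01 for the ribosome. The part of the mitochondrial share in these values was not tested further.

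Of the ages between 8 and 24 wk, 12 and 16 wk were compared next, to see when the levels changed. Against 8 wk no gene was called at 12 wk (815 at an unadjusted p under 0.05, 5.91%) and 284 were called at 16 wk (2.06%), of which 197 were lower (1.43%). Against 12 wk no gene was called at 24 wk either with edgeR (509 at an unadjusted p under 0.05, 3.69%). The contrasts against 8 wk share the 8 wk rats with the main one, and 24 against 12 wk shares its 24 wk rats, so the values stand side by side. For Ugt8 the log2 fold changes from 8 wk were -0.65 at 12 wk, -1.33 at 16 wk and -1.09 at 24 wk. For Masp1 they were -0.58, -0.77 and -0.74. The median of the myelin list was -0.44, -0.72 and -0.52 at these ages, lowest at 16 wk. Cyp51 had -0.38, -0.48 and -0.57, Hmgcs1 -0.30, -0.37 and -0.52, and Pnlip -0.81, -1.15 and -1.31, so these were lowest at 24 wk. Wfikkn2 had 0.55, 0.50 and 1.20. A straight line on log2 age through the 21 SHR libraries of the 4 ages called 17 genes (0.123%), 15 with a negative slope (0.109%), and 13 of the 23 genes above were among them.

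The contrast of 16 against 12 wk uses none of the 10 rats. In it 22 of the 23 genes had the direction of the main contrast, as had 62.6% of all genes, and 9 of them had an unadjusted p under 0.05 against 3.33% of all genes. None was called there.

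**Figure D4:**
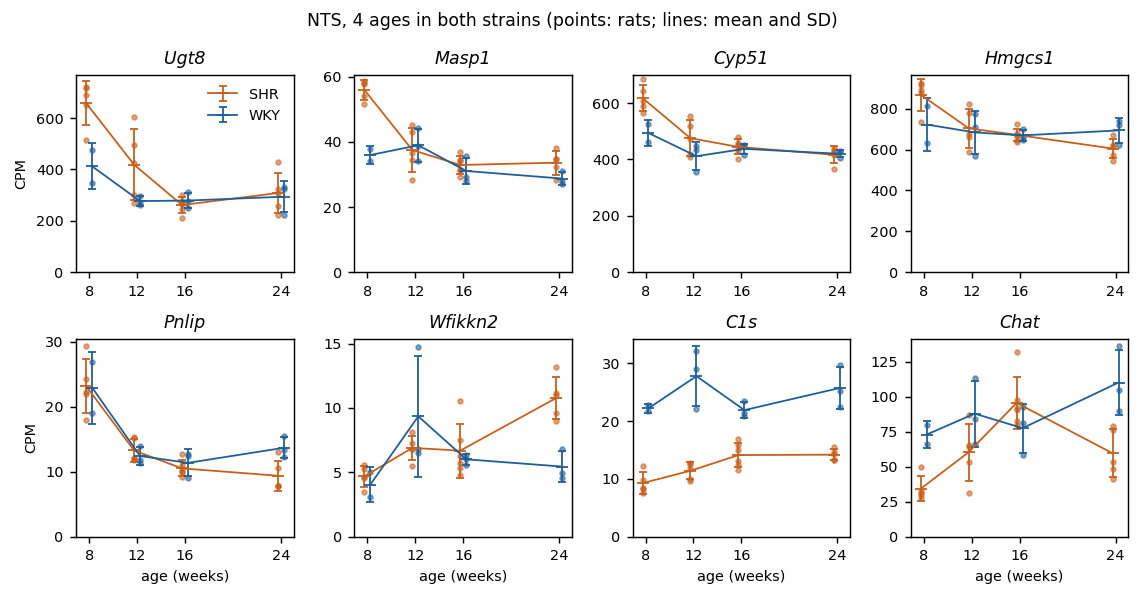
Level in CPM (vertical axis, from 0) of 8 genes in the NTS at 8, 12, 16 and 24 wk (horizontal axis) in SHRs (orange, 5, 5, 6 and 5 rats) and WKY rats (blue, 2, 3, 3 and 3 rats), with a point for each rat and lines through the means with the SD. The SHR level of Ugt8 starts at 658 CPM at 8 wk, above the WKY mean of 412 CPM, and the strains lie near each other at 16 and 24 wk.

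WKY rats were compared at the same ages, to ask whether the change belongs to the SHR. Only 2 WKY libraries of 8 wk and 3 of 24 wk end in 1, so their contrast is weak. It called no gene (872 at an unadjusted p under 0.05, 6.32%). Of the 23 genes, 22 had the direction seen in SHRs, as had 45.5% of all genes, and 7 had an unadjusted p under 0.05. Between 12 and 24 wk in WKY rats 9 of the 23 had that direction, as had 41.4% of all genes. The difference of the change between the strains called no gene with edgeR (935 at an unadjusted p under 0.05, 6.78%), and 2 with DESeq2. The WKY libraries differed in choroid plexus markers, which summed to 263 CPM in replicate 2 of 8 wk. At 12 wk these markers summed to 4874 and 854 CPM in replicates 2 and 3. In replicate 1 they summed to 8.62 CPM at 8 wk and 12.4 CPM at 12 wk. WKY rats of 24 wk had 9.12 to 11.7 CPM. The part of this tissue in the WKY contrasts and the strain difference was not tested.

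The levels of both strains stand side by side here, with no test at a single age. Ugt8 had 658 ± 84.5 CPM in SHRs (SD, n = 5) and 412 ± 89.4 CPM in WKY rats (n = 2) at 8 wk, and 309 ± 77.4 and 294 ± 61.4 CPM at 24 wk (n = 5 and 3). Its change in SHRs less that in WKY rats was -0.61 ± 0.32 (SE, adjusted p = 0.694, edgeR). Masp1 had 55.9 ± 3.06 and 35.9 ± 2.76 CPM at 8 wk, and 33.6 ± 3.71 and 28.7 ± 1.93 CPM at 24 wk, a difference of change of -0.41 ± 0.19 (adjusted p = 0.694). Hmgcs1 had 869 ± 78.0 and 722 ± 131 CPM at 8 wk, and 605 ± 47.5 and 694 ± 61.8 CPM at 24 wk, a difference of -0.46 ± 0.17 (adjusted p = 0.694). Pnlip fell in both strains from 23.2 and 23 CPM to 9.37 and 13.7 CPM by mean, with an unadjusted p of 0.00204 in WKY rats that did not pass adjustment in edgeR. Wfikkn2 had 10.8 ± 1.62 CPM in SHRs and 5.44 ± 1.23 CPM in WKY rats at 24 wk. In WKY rats its mean was highest at 12 wk, where replicate 2 had 14.8 CPM. That rat also had the highest choroid plexus sum, 4874 CPM, and whether the Wfikkn2 level came from that tissue was not tested. The myelin list had a median change of -0.19 in WKY rats from 8 wk and 0.21 from 12 wk.

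The CVLM and RVLM of the same 10 rats gave the same contrast in other tissue. There 54 genes were called in the CVLM (0.403%) and 30 in the RVLM (0.224%). Each of the 23 NTS genes had its NTS direction in both regions, as had 67.1% and 64.4% of all genes. At an unadjusted p under 0.05, 22 of them passed in the CVLM (6.73% of all genes) and 23 in the RVLM (5.88%), and 14 and 12 were called. The regions come from the same rats and are not independent of each other.

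For Pnlip the log2 fold change was -1.31 (NTS), -1.29 (CVLM) and -1.42 (RVLM), and it was called in each. Cyp51 had -0.57, -0.79 and -0.65, and Hmgcs1 had -0.52, -0.74 and -0.48, called in each. Ugt8 had -1.09, -1.02 and -0.74, also called in each. Masp1 had -0.74 in the NTS and -1.04 in the CVLM, where it was called, and -0.31 in the RVLM (adjusted p = 0.644). RT1-CE4 had 0.76, 0.21 and 0.30, and was called in the NTS. Its NTS change exceeded that of the CVLM by 0.55 ± 0.22 and that of the RVLM by 0.48 ± 0.22 (SE), neither of which passed adjustment in edgeR. With the rat as a block, the change differed from that of the CVLM for no gene (304 at an unadjusted p under 0.05, 2.2%) and from that of the RVLM for no gene (516, 3.74%), with edgeR. DESeq2 called 0 and 2 genes. The median of the cholinergic list was 0.64, 0.16 and 0.01 in the same order, and that of the cholesterol list was -0.20, -0.37 and -0.25.

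**Figure D5:**
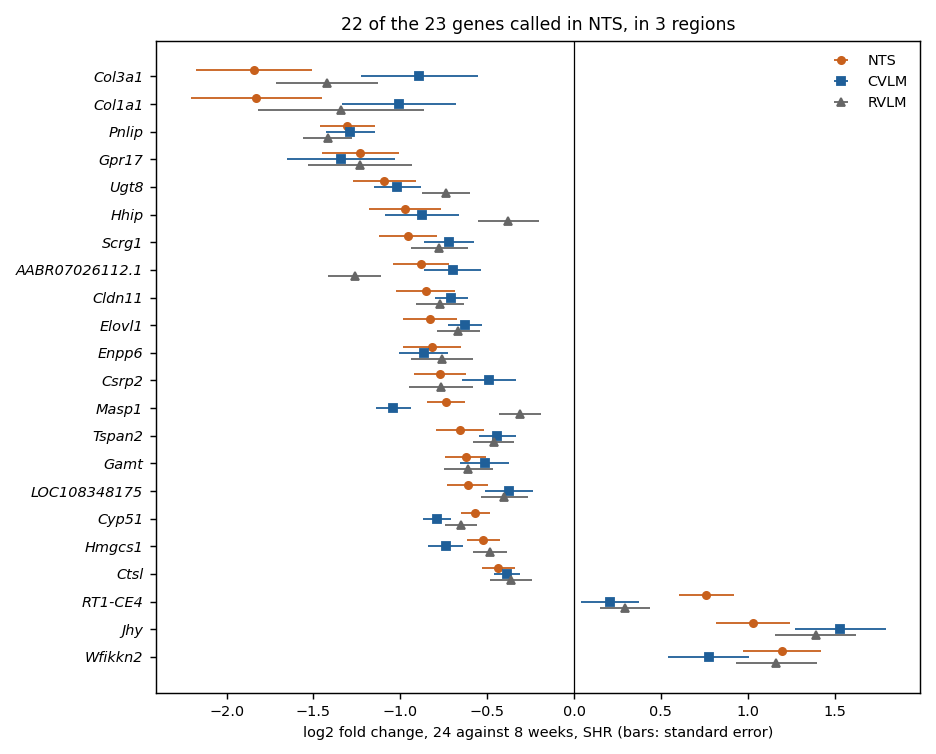
Log2 fold change of 24 against 8 wk in SHRs (horizontal axis, with standard errors) of 22 of the 23 genes called in the NTS, shown for NTS (orange circles), CVLM (blue squares) and RVLM (grey triangles) of the same rats. All points of a gene lie on the same side of 0, and Masp1 and RT1-CE4 show gaps between regions.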

How the data were processed

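RNA-seq of NTS, CVLM and RVLM punches was mapped by the authors to rn6 with STAR 2.6.1 in RSEM 1.3.1. The deposited values are expected counts per gene, not normalized. The methods name ComBat_seq for batches, and 5.02% of the NTS values are not whole, so adjusted counts are not evident. Expected counts were rounded. Genes with a largest rlog value of at least 3.5 were kept (13793 of 32883). One model over the 32 NTS libraries ending in 1, with a term for each strain and age, was fitted in R 4.3.3 with edgeR 4.0.16 (TMM, quasi-likelihood test, 24 residual degrees of freedom). Alternatives used DESeq2 1.42.0, limma 3.58.1 (voom) and sva 3.50.0. Regions were compared over 30 libraries with the rat as a block. Scripts were tested on simulated data. No pair of libraries within a group was a repeat (lowest chi-square per gene 7.80 over 20 pairs). Named genes are the 15 highest and 15 lowest called genes with a symbol and a mean of at least 1 CPM, up to 10 a direction by p, and, of each of 43 lists, called members and the 2 most abundant others. Other called genes, and genes said to be so, were named after their values were seen. The members and lists were chosen with earlier results of these data known. The age in 1 CVLM library's title and label conflict, and the title was used. A few genes are not reported here.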

Additional observations from a re-analysis of the deposited data

Results flagged for a closer look

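Within groups of 5 rats, a value was taken as standing apart where its gap to the nearest other, divided by the group's range, passed Dixon's 95% critical value, which chance alone passes in about 1 of 20 groups. Of 112 sets of values examined, 3 passed. Hmgcs1 was lower in 8 wk replicate 2, at 734 CPM, than in the other 8 wk rats, at 876 to 927 CPM, and it was still above all 24 wk rats. Chat was higher in 8 wk replicate 1, at 49.8 CPM, than in the others, at 27.5 to 32.9 CPM. The mitochondrial share of 8 wk replicate 3 was 13.9%, against 7.21% to 8.15% in the others. Without that library 12 genes were called in place of 23.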

How the results depend on the processing

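The 23 calls of 24 against 8 wk became 27 with DESeq2 size factors, 31 with limma voom, 24 with another filter and 32 with all 46 NTS libraries. They became 69 with the DESeq2 test, 35 with 2 surrogate variables, 5 with only the 10 libraries compared and 2 at an adjusted p of at most 0.01 with a log2 fold change of at least 1. Leaving out 1 rat gave 5 to 35. Chosen after seeing the data, the first component of the libraries as a covariate gave 50 and leaving out replicate 3 of both ages gave 9. The 17 calls on the age slope became 66 with DESeq2, 44 with all SHR libraries and 8 with age in weeks, and 6 to 60 without 1 rat. The strain difference gave 2 with DESeq2, and the NTS against RVLM difference 2. Over the settings 43 of the named genes were followed, most of them called or near the threshold. Other named genes were not followed, several of them with values near 0, such as Tf, Aif1, P2ry12, Sox10, Cspg4 and Fdps. None of the 43 changed direction in any setting, but the settings share most of their rats and the genes were largely picked by their difference. Of their 989 values, 115 lost and 63 gained the threshold, and Pnlip, Masp1, Ugt8 and Cyp51 kept it in all of them. Between 8 and 24 wk rats of the same replicate number, deviations from the group mean correlated at 0.08 to 0.43, all above 0. By these deviations, 2 of 5 matched best with their own number. The main fit had no term for replicate number, and whether rats of a number share a source of variation was not tested. With the replicate block, 32 genes were called at 24 against 8 wk, 22 of them among the 23, 6 on the slope and 0 on the strain difference. Of 989 values of list medians, 9 moved by more than the spread between libraries. The median of oligodendrocyte precursors and newly forming oligodendrocytes ran from -0.45 to -0.08 and the cholinergic one from 0.40 to 0.69.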

Other observations

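Other genes outside the threshold had large values and were named after these were seen. C3, the central complement factor, had a mean of 9.05 CPM at 8 wk and 39.7 CPM at 24 wk, and Aldh1a2, which makes retinoic acid in the meninges, had 13.6 and 39.4 CPM. The ages overlapped for both genes. Aldh1a2 ran from 9.89 to 21.3 CPM at 8 wk and from 15.5 to 64.0 CPM at 24 wk. Among genes of the extracellular matrix, the log2 fold change was -0.71 for Hapln1, which links hyaluronan to proteoglycans, -0.59 for Vcan, a proteoglycan, and -0.61 for Tnr, which ties such proteoglycans together around axons. Hapln4 and Bcan, of the same nets, had 0.00 and 0.12. Igf2, a growth factor of the meninges, went from a mean of 6.89 to 3.05 CPM. None of these was called.

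Over the 32 libraries the first component took 37.0% of the variance of the 1000 most variable genes. Its scores ran from -39.0 to 13.7 at 8 wk and from -27.5 to 25.8 at 24 wk in SHRs, so the ages overlapped on it.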
